A study of Mus musculus with 162 samples.

Results

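Astrocytes, the star-shaped glial cells of the brain, were followed through 9 genes that are widely used to recognise them: Gfap, Aqp4, Glul, Slc1a2, Slc1a3, Aldh1l1, S100b, Aldoc and Gja1. The genes were taken from the count table by symbol alone, and they are 9 of its 53686 genes. All 9 are annotated as protein-coding. Their levels are described in the OB, BRN, CBL and BST of fed and fasted mice, with the other organs of the same mice beside them.

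The study sequenced mRNA from organs of male C57BL/6J mice, 8 to 9 weeks old, that were fed ad libitum (0 h) or had fasted for 2, 8, 12, 18 or 22 h. Each time had 3 mice, and each of the 18 mice gave 9 organs, so a library stands for 1 organ of 1 mouse. Libraries of the same fasting time and replicate number were taken as 1 mouse, and all comparisons within mice rest on this numbering. The mice were killed in the same window of the day, so the groups also differ in the clock time at which fasting began. OB is the olfactory bulb, BRN the telencephalon with the diencephalon, CBL the cerebellum, and BST the mesencephalon with the pons and myelencephalon. STM is stomach, LIV liver, iBAT brown adipose tissue, and pgWAT and psWAT are a perigonadal and a subcutaneous white adipose depot.

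Counts in genes ran from 8224940 to 17704828 in 18 OB libraries, from 3045845 to 12108290 in 16 BRN libraries, from 6487419 to 22071004 in 18 CBL libraries, and from 6998492 to 11776354 in 18 BST libraries. The medians were 11630035, 8113246, 8449758 and 10540289 counts. In CBL the 3 fed libraries were the deepest, with 20396385 to 22071004 counts against 6487419 to 9487976 at the fasting times. The study left out 5 of the 162 libraries, and they are left out below. Among them were BRN 8 h replicate 3, with 130701 counts, and BRN 18 h replicate 1, with 279848 counts, so that these BRN groups have 2 mice each. The other organs have 17 or 18 libraries each, with 3156101 to 27801717 counts.

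Astrocytes take up glutamate released by neurons through the transporters encoded by Slc1a2 and Slc1a3, and turn it into glutamine with glutamine synthetase, encoded by Glul. They also carry water channels, are coupled to each other by gap junctions, and hold a cytoskeleton rich in glial fibrillary acidic protein. Astrocytes of different brain regions are known to differ in shape and in gene expression, and the Bergmann glia of the cerebellum are a specialised form of them.

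Some libraries stood apart before any result. Over the genes kept for the brain tests, each of the 70 brain libraries was most like the median profile of its own region. The lowest correlations were those of BRN 18 h replicate 2 (r = 0.912) and BRN 12 h replicate 2 (r = 0.939). These were also the shallowest brain libraries, with 3045845 and 3152641 counts. The psWAT library of 12 h replicate 3 was more like CBL (r = 0.899) than like the other psWAT libraries (r = 0.810), and psWAT 8 h replicate 1 was more like pgWAT (r = 0.956) than psWAT (r = 0.925). In OB 0 h replicate 3 the summed level of 5 choroid plexus genes was 368 CPM (counts scaled to the total of the library), against 4.98 to 17.4 CPM in the other OB libraries. In BST 0 h replicate 2 the sum of 8 genes of cerebellar granule and Purkinje cells was 770 CPM, the highest of the BST libraries, whose median was 261 CPM.

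All 9 genes were detected in every brain library, and together they took 0.555%, 0.530%, 0.636% and 0.704% of the counts of OB, BRN, CBL and BST (medians). Per kilobase of exon, which allows genes to be compared, Glul had the highest median of the 9 in OB (612 CPM per kilobase), BRN (394) and BST (569). In CBL the highest was Aldoc, with 557 CPM per kilobase, followed by S100b with 509 and Glul with 304. Among the 21434 genes with a known exon length and a median above 0 in OB, Glul ranked 28 by this measure. Among the 21160 such genes of BST it ranked 30. Aldoc ranked 26 of 20766 in CBL. Aldh1l1, a folate enzyme often used as a broad astrocyte marker, was the lowest of the 9 in OB, CBL and BST at 14.5, 14.7 and 15.7 CPM per kilobase, and in BRN the lowest was Aqp4 at 14.6. The plot of the levels by region shows the spread of each gene over the mice.

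**Figure D1:**
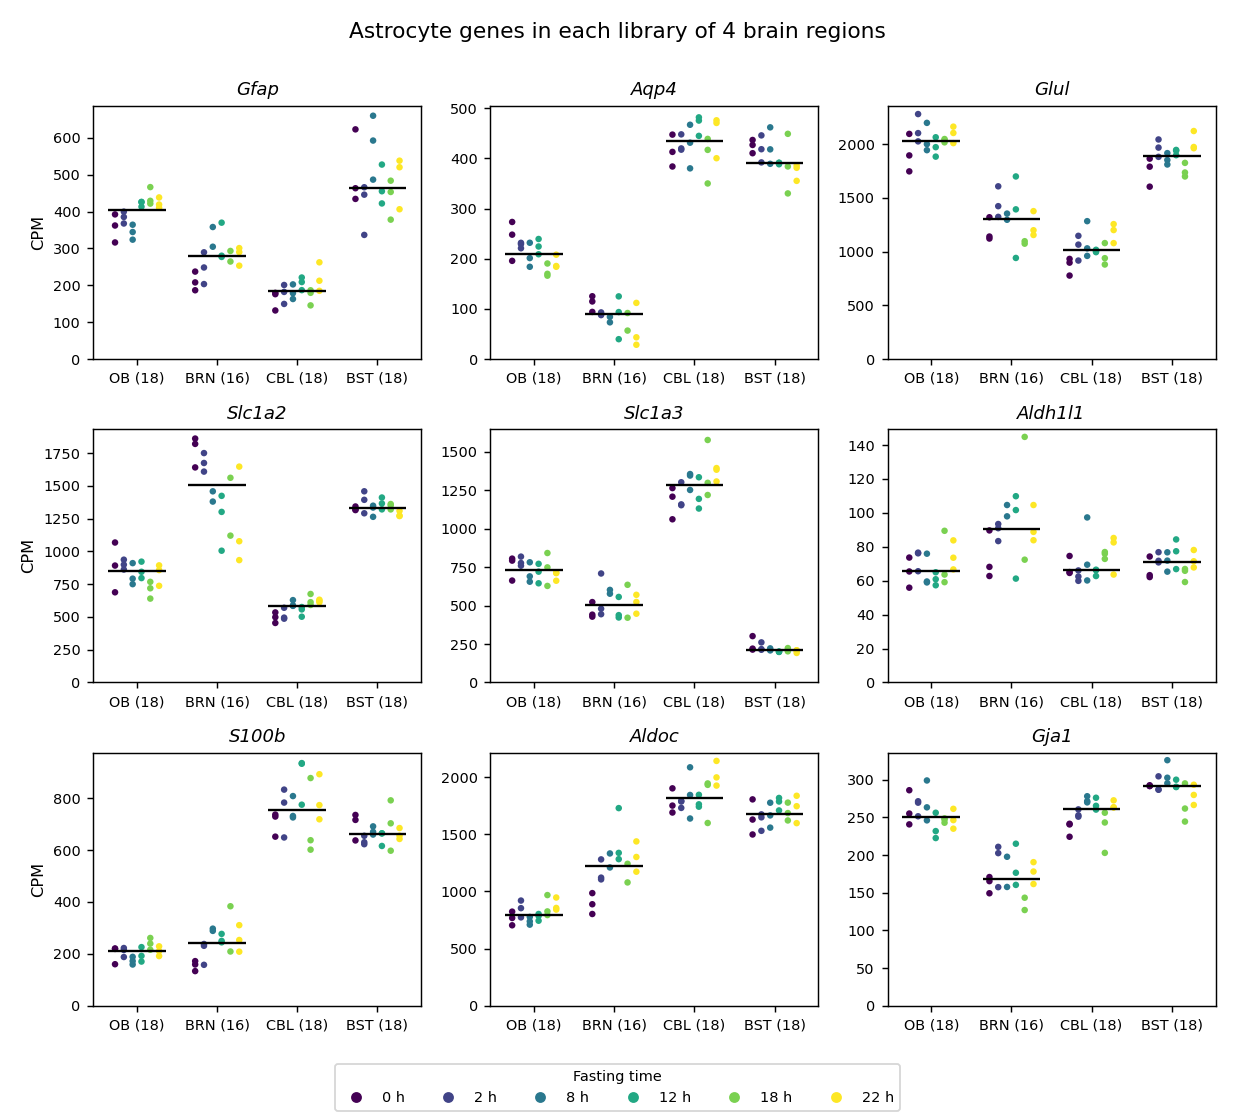
Levels of the 9 astrocyte genes in OB, BRN, CBL and BST, in CPM, with 1 point for each library coloured by fasting time and a line at the median. Slc1a3 in BST and Aqp4 in BRN lie below the other regions without overlap.

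The 2 glutamate transporters had different orders of regions. Slc1a2 (ENSMUSG00000005089.15, chromosome 2) encodes the main glutamate transporter of forebrain astrocytes. Its lowest, median and highest levels were 639, 851 and 1067 CPM in OB, 933, 1510 and 1860 CPM in BRN, 454, 580 and 675 CPM in CBL, and 1263, 1327 and 1458 CPM in BST. The range of BRN was reached by 2 OB libraries and by no CBL library, and the BRN range enclosed that of BST. Against the mean of the other 3 regions, Slc1a2 was lower in CBL by a log2 fold change of −1.12 (SE 0.04, adjusted p = 5.78e-35). In BRN the difference was 0.89 (SE 0.04, adjusted p = 3.78e-31), under the log2 threshold of 1 for a call, and 1.18 once a trend on transcript length was taken out of each library. The order was BRN, BST, OB and CBL, and each neighbour differed from the next. BRN and BST were closest at 0.20 (SE 0.05, adjusted p = 7.20e-05), and this difference was 0.074 and no longer passed when the left-out libraries were returned.

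Slc1a3 (ENSMUSG00000005360.14, chromosome 15) encodes the transporter GLAST, known for its abundance in Bergmann glia. Its levels were 628, 735 and 842 CPM in OB, 421, 501 and 709 CPM in BRN, 1062, 1282 and 1578 CPM in CBL, and 191.8, 212 and 301 CPM in BST, as lowest, median and highest. The CBL and BST libraries overlapped with no other region, and OB overlapped with the upper part of BRN. Within mice, Slc1a3 was higher in CBL than in BST in 18 of 18, by 4.196 to 7.43 times with a median of 5.92. The log2 fold change against the other 3 regions was 1.47 in CBL (SE 0.05, adjusted p = 2.34e-34) and −1.85 in BST (SE 0.06, adjusted p = 3.73e-35). All neighbours in the order CBL, OB, BRN and BST differed. OB and BRN were closest at 0.31 (SE 0.07, adjusted p = 3.79e-05), which came to 0.034 and did not pass with the length trend removed. For BRN alone the difference from the other 3 was −0.017 (SE 0.06, adjusted p = 0.797) and its sign changed to 0.25 with the length trend removed and to 0.11 without replicate 3 of each group.

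The highest Slc1a3 level in BST, 301 CPM, was that of 0 h replicate 2, the library with the highest cerebellar sum. Across the 18 BST libraries Slc1a3 and that sum had r = 0.924, and in CBL r = 0.691, where points share the library and its depth. The most abundant gene of that list was Calb1 in BST (78.9 CPM) and Car8 in CBL (2059 CPM), and none of the 8 genes was at 0 in every BST library. The part of cerebellar tissue in the BST values was not tested. The next highest level in BST was 261 CPM, in 2 h replicate 1, whose cerebellar sum of 554 CPM was also the next highest.

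The ratio of the transporters, taken per kilobase within each library, kept the regions apart. Slc1a2 was 0.592 to 0.875 times Slc1a3 in OB (median 0.745) and 0.233 to 0.326 times in CBL (median 0.288). It was 1.06 to 2.83 times Slc1a3 in BRN (median 2.06) and 2.85 to 4.57 times in BST (median 4.11). No library of a region had a ratio inside the range of another region. The lowest BST ratio, 2.85, came from 0 h replicate 2, and the lowest BRN ratios, 1.06 to 1.17, from 22 h replicate 2, 18 h replicate 2 and 12 h replicate 2.

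**Figure D2:**
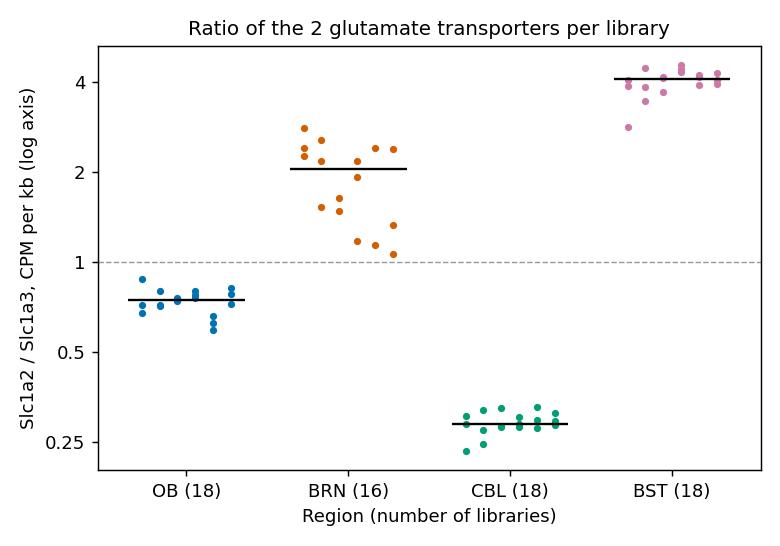
Slc1a2 against Slc1a3 in each brain library, as the ratio of CPM per kilobase of exon on a log axis, by region. The points of CBL lie between 0.233 and 0.326 and those of BST between 2.85 and 4.57.

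Glul (ENSMUSG00000026473.15, chromosome 1) encodes glutamine synthetase, which oligodendrocytes also express. Its lowest, median and highest levels were 1747, 2032 and 2280 CPM in OB, 941, 1308 and 1700 CPM in BRN, 777, 1010 and 1284 CPM in CBL, and 1604, 1890 and 2122 CPM in BST. OB lay wholly above BRN and CBL, and BST lay wholly above CBL. Glul differed from the mean of the other regions by 0.51 in OB (SE 0.03, adjusted p = 3.78e-21) and by −0.80 in CBL (SE 0.04, adjusted p = 3.95e-29) on the log2 scale, both under the threshold of 1. In the order OB, BST, BRN and CBL the first neighbours did not differ beyond their spread (0.04, SE 0.04, adjusted p = 0.337), while BST and BRN (0.46) and BRN and CBL (0.48) did. Glul was higher in OB than in BST in 16 of 18 mice, with a median ratio of 1.07.

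Around this cycle, 13 further genes of glutamate and glutamine handling were tested. In OB 1 was called higher, Slc38a3, a glutamine transporter (1.36, median 192.97 CPM in OB and 62.8 to 80.8 CPM elsewhere), and 2 lower, Slc1a6 (−2.29) and Slc17a6 (−1.86). In CBL 1 was higher, Slc1a6, the glutamate transporter of Purkinje cells (3.73, median 160.98 CPM), and 2 were lower, the neuronal glutamate transporter Slc1a1 (−1.44) and the amino acid transporter Slc1a4 (−1.07). BRN had 1 higher, the vesicular glutamate transporter Slc17a7 (1.56), and 1 lower, the glutamine transporter Slc38a1 (−1.41). BST had the vesicular transporter Slc17a6 higher (2.71) and Slc17a7 lower (−2.79). The medians of the list were 0.016, −0.07, −0.41 and 0.31 for OB, BRN, CBL and BST, against 0.013, −0.024, −0.012 and −0.017 over all 18496 genes tested. Of these 18496 genes 17.2%, 21.9%, 19% and 16.1% were called in the same order of regions.

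Aqp4 (ENSMUSG00000024411.10) encodes the water channel of astrocyte endfeet, the processes that wrap blood vessels. Its levels were 166.2, 208 and 273 CPM in OB, 28.5, 90.8 and 125.2 CPM in BRN, 350, 435 and 482 CPM in CBL, and 330, 392 and 462 CPM in BST, as lowest, median and highest. The BRN libraries lay below all others, OB lay between, and CBL and BST overlapped. In all 16 mice with a BRN library, BRN was below CBL, with a ratio of 0.0599 to 0.303 and a median of 0.213. The log2 fold change against the other 3 regions was −1.87 in BRN (SE 0.08, adjusted p = 7.67e-27), 1.11 in CBL (SE 0.06, adjusted p = 5.15e-22) and 1.06 in BST (SE 0.06, adjusted p = 4.05e-21). CBL and BST did not differ beyond their spread (0.04, SE 0.08, adjusted p = 0.690), while BST was above OB by 1.01 and OB above BRN by 1.18. The lowest BRN values, 28.5, 39.6 and 43.4 CPM, came from 22 h replicate 2, 12 h replicate 2 and 22 h replicate 1, which also had 3 of the 5 BRN ratios of Slc1a2 to Slc1a3 under 1.5.

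Gja1 (ENSMUSG00000050953.10, chromosome 10) encodes the main connexin of astrocyte gap junctions. Of the 9 genes it varied little: 223, 250 and 299 CPM in OB, 127, 168.2 and 215 CPM in BRN, 203, 261 and 278 CPM in CBL, and 245, 292 and 326 CPM in BST. BRN was the lowest region and overlapped CBL only narrowly, and the other regions overlapped each other. BRN differed from the mean of the others by −0.49 (SE 0.04, adjusted p = 3.21e-19) and BST by 0.38 (SE 0.03, adjusted p = 6.36e-17). Over all settings run the BRN difference was −0.54 to −0.21 and the BST difference 0.28 to 0.43. CBL and OB, neighbours in the order BST, CBL, OB and BRN, did not differ beyond their spread (0.015, SE 0.04, adjusted p = 0.749), and the sign of that difference changed without replicate 1. The differences of OB (0.04, adjusted p = 0.227) and CBL (0.06, adjusted p = 0.0721) from the other 3 did not pass the test either, and became −0.043 and −0.023 with the length trend removed.

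The other 9 connexin genes had no call in CBL, 2 higher and 4 lower in OB, 1 higher and 1 lower in BRN, and 4 higher and 0 lower in BST. Of all genes 19% were called in CBL, 17.2% in OB, 21.9% in BRN and 16.1% in BST, and the medians of the list were −0.0064, −0.84, −0.069 and 0.88 in this order. Among those higher in BST was Gjb1 (2.13), a connexin of oligodendrocytes. In OB the neuronal connexin gene Gjd2 (1.44) and Gjb2 (1.26) were higher, and Gjb1 was lower (−1.91). In BRN the vascular connexin gene Gja4 was just past the threshold (1.00) and Gjd2 was lower (−2.59). The oligodendrocyte sum below follows the same order of regions as Gjb1 in OB and BST.

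Gfap (ENSMUSG00000020932.14, chromosome 11) encodes the intermediate filament protein of astrocytes. Its lowest, median and highest levels were 316, 405 and 467 CPM in OB, 186.7, 279 and 370 CPM in BRN, 131.9, 184 and 262 CPM in CBL, and 337, 465 and 660 CPM in BST. CBL lay below all OB and BST libraries and overlapped with BRN, and OB lay mostly inside the BST range. In CBL the log2 fold change against the other regions was −1.08 (SE 0.05, adjusted p = 1.94e-28), and in BST 0.83 (SE 0.04, adjusted p = 4.70e-25). All neighbours in the order BST, OB, BRN and CBL differed, by 0.36, 0.34 and 0.73. Within the 18 mice, CBL had 0.271 to 0.597 times the BST level, with a median of 0.371.

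S100b (ENSMUSG00000033208.7, chromosome 10) encodes a calcium-binding protein of astrocytes that oligodendrocytes also make. Its levels were 158.998, 213 and 261 CPM in OB, 133.6, 241 and 383 CPM in BRN, 601, 755 and 935 CPM in CBL, and 597, 662 and 791 CPM in BST, as lowest, median and highest. OB and BRN overlapped, CBL and BST overlapped, and between these pairs there was a gap from 383 to 597 CPM. The log2 fold changes against the other 3 regions were −1.37 in OB (SE 0.06, adjusted p = 1.68e-27), −0.81 in BRN (SE 0.06, adjusted p = 4.48e-17), 1.18 in CBL (SE 0.05, adjusted p = 2.77e-27) and 1.01 in BST (SE 0.05, adjusted p = 6.71e-24). The BST call was lost at 0.98 without replicate 3. CBL and BST did not differ beyond their spread (0.13, SE 0.07, adjusted p = 0.0778). This difference passed with no filter on low counts, without BRN of mice 6 and 14, and without replicate 2 of each group. The BRN libraries of mice 6 and 14 are 2 h replicate 3 and 18 h replicate 2. Leaving them out keeps BRN 12 h replicate 2, which also stood apart above.

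Markers of oligodendrocytes moved with these values. The summed level of 7 oligodendrocyte genes, led by Mbp and all detected in every region, had medians of 4275, 12254, 8448 and 24304 CPM in OB, BRN, CBL and BST. All 7 were called lower in OB and higher in BST. Within regions, S100b and this sum had r = 0.776 over 18 OB libraries, 0.934 over 16 in BRN, 0.719 over 18 in CBL and 0.847 over 18 in BST. Gfap had r = 0.281, 0.641, 0.874 and 0.270 with it in the same order. In BRN the sum also had r = 0.849 with Slc1a3, 0.764 with Aldoc, 0.739 with Aldh1l1, −0.667 with Aqp4 and −0.652 with Slc1a2. The points share library, depth and mouse. The S100b median was highest in CBL, and the oligodendrocyte sum was highest in BST. The part of oligodendrocytes in the S100b levels was not tested. In bulk tissue, fewer cells of a type and less RNA per cell cannot be told apart, here or in any value below.

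Other marker sums set the regions apart too. For 7 neuronal genes, led by Snap25, the medians were 6137, 5506, 6423 and 8075 CPM in OB, BRN, CBL and BST. For 4 endothelial cell genes they were 98.3, 86.5, 92.4 and 152.3 CPM, led by Cldn5 in OB and BRN and by Slco1a4 in CBL and BST. All of these genes were detected in each region. The median difference of the endothelial cell list in BRN was −0.58, and its part in the level of Aqp4 was not tested.

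Aldoc (ENSMUSG00000017390.15, chromosome 11) encodes the brain aldolase, a glycolytic enzyme that a subset of Purkinje cells also makes. Its lowest, median and highest levels were 704, 799 and 969 CPM in OB, 803, 1226 and 1730 CPM in BRN, 1599, 1819 and 2143 CPM in CBL, and 1499, 1681 and 1838 CPM in BST. OB lay below CBL and BST, and BRN reached into both neighbours. OB was lower than the mean of the others by −1.02 on the log2 scale (SE 0.04, adjusted p = 5.65e-31). That call sat at the threshold and was lost at −0.99 with the left-out libraries returned and at −0.97 without replicate 2. CBL and BST did not differ beyond their spread (0.06, SE 0.05, adjusted p = 0.228), whereas BST was above BRN by 0.38 and BRN above OB by 0.75. The difference of BRN from the other 3 was −0.024 (SE 0.04, adjusted p = 0.626) and 0.041 without replicate 3.

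Aldh1l1 (ENSMUSG00000030088.15, chromosome 6) encodes a dehydrogenase of the folate cycle. Its levels were 55.9, 65.5 and 89.4 CPM in OB, 61.2, 90.3 and 144.8 CPM in BRN, 59.9, 66.3 and 97.3 CPM in CBL, and 59.2, 71.1 and 84.3 CPM in BST. All regions overlapped, with some BRN libraries above the rest. Like Glul and Gja1 it had no called region, and the difference of BRN from the other 3 was 0.56 (SE 0.06, adjusted p = 2.15e-12). BRN and CBL differed by 0.56 (SE 0.07, adjusted p = 1.22e-09), while CBL and BST (−0.06, adjusted p = 0.465) and BST and OB (0.12, adjusted p = 0.111) did not differ beyond their spread. The highest value, 144.8 CPM, came from BRN 18 h replicate 2, which stood apart above, and the next was 110 CPM, in 12 h replicate 1.

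Among 17 further genes of glycolysis and lactate handling, none was called in OB or CBL. In BRN 3 were higher and 0 lower, among them Ldha, a lactate dehydrogenase subunit (1.64, median 195.6 CPM). In BST 0 were higher and 2 lower, Ldha among them (−1.05). Of all genes 17.2%, 21.9%, 19% and 16.1% were called in OB, BRN, CBL and BST. The median of the list was −0.13, 0.55, −0.39 and −0.033 in the same order. Aldoc was lowest in OB, and none of the 17 genes was called lower there.

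Counted together, 2 of 9 members were called in OB against the other 3 regions, with 17.2% of all genes called. In BRN 1 of 9 was called beside 21.9% of genes, in CBL 5 of 9 beside 19%, and in BST 3 of 9 beside 16.1%. The OB calls were S100b and Aldoc, both lower, and the BRN call was Aqp4, lower. CBL had Slc1a3, S100b and Aqp4 higher and Slc1a2 and Gfap lower, and BST had Aqp4 and S100b higher and Slc1a3 lower. The member medians were −0.27, −0.10, 0.06 and 0.48 in the same order of regions. The shares in OB and BRN were near or below those of all genes, and those in CBL and BST were above them, without a test of the list. By adjusted p alone, 7 of the 9 members were higher in BST and Slc1a3 was lower, beside 73.7% of all genes that passed. Aldh1l1 did not differ there beyond its spread.

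Of a longer list of further astrocyte genes 35 of 36 were tested. OB had 1 called higher and 0 lower, the glycine decarboxylase gene Gldc (1.98, median 53.98 CPM in OB and 4.07 in BST). BRN had 3 higher and 4 lower, with the metallothionein gene Mt3 (1.37) and Clu (1.07) at the top and Luzp2 (−1.29) and the bicarbonate transporter gene Slc4a4 (−1.23) at the bottom. CBL had 2 higher, the glutamate receptor subunit gene Grin2c (2.30) and the urea transporter gene Slc14a1 (1.03), and 4 lower, among them Gpc5 (−1.92) and Cspg5 (−1.18). In BST 3 were higher, led by the potassium channel gene Kcnj10 (1.64, median 897 CPM against 218 to 370 CPM elsewhere) and Gpc5 (1.15), and 2 were lower, Gldc (−2.96) and Grin2c (−1.75). Of all genes 17.2%, 21.9%, 19% and 16.1% were called in OB, BRN, CBL and BST. The medians of the list were −0.08, 0.04, −0.15 and 0.23 in the same order.

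Of a list of 12 genes with known regional enrichment in astrocytes, which was chosen for such differences, the calls were 4 higher and 4 lower in OB, 4 and 2 in both BRN and CBL, and 6 and 4 in BST. Of all genes 17.2%, 21.9%, 19% and 16.1% were called in the same order of regions. The growth factor gene Gdf10, a Bergmann glia gene, was higher in CBL by 4.46, with a median of 181 CPM there and 5.30 to 13.9 CPM elsewhere. Fabp7, a fatty acid binding protein gene, was higher in OB by 3.70. Irx2, a homeobox gene, had medians of 15.8 CPM in BST and 0 in OB. Agt, the angiotensinogen gene, was lower in OB (−1.97). Lhx2 was higher in BRN (2.78) and lower in CBL (−3.40) and BST (−2.01), and Irx5 was higher in CBL (3.14) and BST (3.22). Gdf10 was lower in BRN (−1.88) and BST (−2.12), Fabp7 lower in BRN (−1.26), and the GABA transporter gene Slc6a11 lower in CBL (−2.06).

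Of 12 genes known to be raised in reactive astrocytes, OB had 3 higher and 1 lower, BRN 0 higher and 1 lower, CBL 2 higher and 2 lower, and BST 1 higher and 1 lower. The shares of all genes called were 17.2%, 21.9%, 19% and 16.1% in the same order, and the medians of the list were 0.60, −0.49, −0.34 and 0.24. Vim, the gene of the other intermediate filament protein of astrocytes, was higher in CBL (1.54, median 143.8 CPM) and lower in BST (−1.19, median 33.6 CPM), the reverse of Gfap. Serpina3n went the same way as Gfap, lower in CBL (−3.02, median 3.41 CPM) and higher in BST (1.63, median 36.9 CPM). Cxcl10 (1.93) and Lcn2 (1.80) were higher and Cd44 (−1.15) lower in OB, the first 2 at medians of 0.723 and 1.16 CPM. Cxcl10 was lower in BRN (−1.08), and CBL had Cd44 higher (1.17) and S1pr3 lower (−1.25).

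By adjusted p alone 8 of 9 members differed in OB (all but Gja1) beside 72.2% of genes, 6 in BRN (all but Gfap, Slc1a3 and Aldoc) beside 76.9%, 8 in CBL (all but Gja1) beside 74.3% and 8 in BST (all but Aldh1l1) beside 73.7%. Between regions taken in pairs, 1 of 9 was called for OB and BRN (Aqp4) beside 25% of genes, 4 for OB and CBL (Gfap, Aqp4, S100b and Aldoc) beside 24.3%, and 4 for OB and BST (Aqp4, Slc1a3, S100b and Aldoc) beside 25.9%. For BRN and CBL 4 were called (Aqp4, Slc1a2, Slc1a3 and S100b) beside 31.4%, for BRN and BST 3 (Aqp4, Slc1a3 and S100b) beside 26.7%, and for CBL and BST 3 (Gfap, Slc1a2 and Slc1a3) beside 22.2%. Not all of these calls held in every setting run. Slc1a3 for BRN and CBL, at −1.12, came down to −0.85, and Aqp4 for OB and BST, at −1.01, to −0.97. By adjusted p alone the pairs of OB had 9 members with BRN beside 75.4%, 7 with CBL (all but Aldh1l1 and Gja1) beside 72.4% and 7 with BST (all but Aldh1l1 and Glul) beside 77.3%. The others had 9 for BRN and CBL beside 79.2%, 9 for BRN and BST beside 76.2%, and 5 for CBL and BST beside 72.7%. By adjusted p the members' shares thus lay on both sides of those of all genes. For CBL and BST the differences of Aqp4, S100b, Aldoc and Aldh1l1 did not pass, although S100b was higher in CBL in 17 of 18 mice and Aldoc in 15 of 18.

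Pairs of members moved together across the regions or against each other. Over the 70 libraries the highest correlations of log2 normalised CPM were those of S100b with Aldoc (r = 0.886) and of Gfap with Glul (r = 0.875), and the lowest were those of Gfap with Slc1a3 (r = −0.766) and of Slc1a2 with Slc1a3 (r = −0.746). These points share mice and depth, and the regions form separate clusters, so the values within regions stand beside them. In the order OB, BRN, CBL and BST, S100b and Aldoc had r = 0.541, 0.821, −0.035 and 0.038. Gfap and Glul had r = 0.263, 0.379, 0.644 and −0.087 in the same order. Slc1a2 and Slc1a3 had r = 0.698, −0.372, 0.671 and 0.0239, so that their negative correlation over all regions recurred only within BRN.

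For each member the 3 genes, of those kept for the brain tests, with the most similar levels over these 70 libraries were named. For Gfap they were Gal (r = 0.911), Serpina3n (0.908) and Efnb3 (0.906), and for Aqp4 Inpp5f (0.968), Esrrg (0.965) and Lrig1 (0.955). Glul was most like Serpine2 (0.945), the GABA transporter gene Slc6a11 (0.931) and Vstm2a (0.929). Slc1a2 was most like Arnt2 (0.963), Dkk3 (0.958) and Pnma2 (0.956), and Slc1a3 most like Dusp5 (0.962), Ntm (0.957) and Gng13 (0.948). For S100b they were Rida (0.977), Aldh1a1 (0.961) and Paip2 (0.958), and for Aldoc Ifitm10 (0.953), Fam69a (0.950) and Pvalb (0.938). Aldh1l1 (Eef1d 0.855, Ndufv1 0.848, Eif2b5 0.845) and Gja1 (Gm13910 0.874, Tspan12 0.855, Elovl5 0.851) had lower values.

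The windows of 250 bases before 1 RefSeq start of transcription each are shown for the members of the 2 most correlated pairs, since these moved together across the regions. RefSeq sequences on GRCm38.p6 matched 8 of the 9 members. In Gencode the Gfap gene reaches to 102900912, so its window lies inside that gene model, and Aldoc starts at 78322968, inside its window. Capitals mark TTGGC or its reverse complement GCCAA, the half-site of nuclear factor I, a factor known from glial genes. This motif was in 41.5% of 32851 windows of this length, and TATAAA, also searched on both strands, in 12.4%. The S100b window (chr10:76253586-76253835, plus strand) holds the first motif 3 times, the Aldoc window (chr11:78322823-78323072, plus strand) 1 time, the Glul window (chr1:153899679-153899928, plus strand) 2 times, and the Gfap window (chr11:102897201-102897450, minus strand) 0 times. TATAAA is in none of these 4. A match describes letters only.
S100b: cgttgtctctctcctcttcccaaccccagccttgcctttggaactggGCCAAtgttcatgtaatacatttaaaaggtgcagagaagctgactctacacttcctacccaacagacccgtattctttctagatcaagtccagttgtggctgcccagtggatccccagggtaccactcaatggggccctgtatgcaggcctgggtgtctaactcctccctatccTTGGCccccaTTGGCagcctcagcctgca
Aldoc: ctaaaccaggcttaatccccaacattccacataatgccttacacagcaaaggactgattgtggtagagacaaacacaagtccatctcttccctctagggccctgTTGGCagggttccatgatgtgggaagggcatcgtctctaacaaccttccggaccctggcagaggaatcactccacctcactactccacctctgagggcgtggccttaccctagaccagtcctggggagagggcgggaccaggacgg
Gfap: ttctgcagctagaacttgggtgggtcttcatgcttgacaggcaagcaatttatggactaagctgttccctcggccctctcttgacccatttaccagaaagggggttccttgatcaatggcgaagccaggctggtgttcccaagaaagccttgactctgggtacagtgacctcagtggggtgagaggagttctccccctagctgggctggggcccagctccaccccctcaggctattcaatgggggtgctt
Glul: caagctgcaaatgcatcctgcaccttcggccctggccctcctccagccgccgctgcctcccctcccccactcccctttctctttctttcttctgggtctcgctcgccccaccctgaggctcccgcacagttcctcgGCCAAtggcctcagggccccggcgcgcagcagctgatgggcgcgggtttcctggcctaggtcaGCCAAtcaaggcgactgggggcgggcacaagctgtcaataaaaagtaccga

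Fasting was compared with the fed state within each region, by a joint test of the 5 fasting times and by each time against 0 h. In OB the joint test passed for 2 of 9 members, Gfap and Aqp4, beside 15.4% of all genes. Gfap in OB was 362, 316 and 393 CPM at 0 h and 467, 429 and 422 CPM at 18 h, with 426, 413 and 426 CPM at 12 h and 419, 439 and 411 CPM at 22 h. All libraries of 12, 18 and 22 h lay above the fed ones, and those of 2 h (385, 368, 400 CPM) and 8 h (345, 364, 324 CPM) overlapped with them. The joint test gave an adjusted p of 0.00838, and at 18 h Gfap rose by 0.30 (SE 0.07, adjusted p = 0.0167).

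Aqp4 went the other way in OB. It was 273, 248 and 195.8 CPM at 0 h and 166.2, 170 and 190 CPM at 18 h. All 18 h libraries lay below the fed ones. At 18 h it fell by 0.45 on the log2 scale (SE 0.10, adjusted p = 0.0122), and the joint test gave an adjusted p of 0.0275. At 18 h 2 of 9 members passed by adjusted p, beside 12% of genes, and neither was past the log2 threshold, with 0.532% of genes called at 18 h and 0.544% at any time. At 8 h and 22 h 0 of 9 members passed in edgeR beside 0.0179% and 0.113% of genes, with 0.0358% past both thresholds at 22 h. Over all times 5 members had an unadjusted p under 0.05 and 3 passed in DESeq2. The medians over all members were 0.06, −0.05, −0.06, 0.09 and 0.08 at 2, 8, 12, 18 and 22 h.

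Both calls depended on lane and on single libraries. The OB libraries of 0 and 2 h were all in lane 3 and those of 12, 18 and 22 h all in lane 4, and only the 8 h libraries lay in both, so lane and late fasting can hardly be told apart. With lane as a term the joint tests gave 0.0755 for Gfap and 0.179 for Aqp4, with differences at 18 h of 0.44 and −0.40. At 18 h both calls were lost without OB 0 h replicate 1 or 18 h replicate 1, and that of Gfap also without 0 h replicate 2. Among the OB libraries, 18 h replicate 1 had the lowest correlation with its own region (r = 0.985). The joint call of Aqp4 was lost without 0 h replicate 2 (0.0504), 18 h replicate 1 (0.104) or 18 h replicate 2 (0.0654) and with the length trend removed (0.0746). The endothelial cell genes also moved: their sum was 107 to 136.5 CPM at 0 h and 93.6 to 128 CPM at 18 h, and 3 of the 4 passed the joint test. The oligodendrocyte sum was 3249 to 5021 CPM at 0 h and 4359 to 5031 CPM at 18 h. Of its 7 genes 3 passed the joint test, Opalin (0.84 at 18 h), Mog (0.38) and Cnp (0.34), and the median of the 7 at 18 h was 0.32. Their part in these changes was not tested.

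Of the 35 further astrocyte genes, 10 passed the joint test in OB, beside 15.4% of all genes. As for Gfap and Aqp4, the fed libraries were all in lane 3 and those of 18 h all in lane 4. The genes named here were not followed with lane as a term. The median of the 35 at 18 h was 0.072. Mt3 was at 0.50 (adjusted p of the joint test 0.00729), Id4 at 0.42 (0.0131), Cldn10 at 0.42 (0.0196), the tissue factor gene F3 at 0.38 (0.0180), Cspg5 at 0.35 (0.00449) and Ndrg2 at 0.33 (0.0102). Ntsr2 (0.22, 0.0345), Pla2g7 (0.20, 0.0370) and Hepacam (0.12, 0.0493) had smaller differences at that time. Kcnj10, whose channel sits with Aqp4 in endfeet, was at −0.38 (0.0125), the only one of the 10 below the fed level at 18 h. Of the glutamate and glutamine genes 5 of 13 passed, among them Slc38a1 (−0.39), Slc17a6 (−0.47), Slc38a3 (−0.09) and Slc38a5 (−0.35) at 18 h. The last of these lay further from the fed level at 12 h (−1.32) and 22 h (−1.29), and Slc38a3 at 8 h (−0.26) and 12 h (−0.27). Hopx (0.41, joint adjusted p = 0.00904) passed among the regionally enriched genes and Cp, the ceruloplasmin gene (−0.70, 0.0040), among the reactive ones. Of the 17 glycolytic genes 4 passed, Pfkp (−0.40), Tpi1 (0.26), Ldhb (0.26) and the glucose transporter gene Slc2a1 (0.15), again at 18 h. Slc2a1 was at 0.66 at 2 h and −0.28 at 8 h.

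In BRN the joint test passed for 0 of 9 members in edgeR, beside 0.00597% of genes. At an unadjusted p under 0.05 it passed for 3, and in DESeq2 it passed for 3, S100b (adjusted p = 0.0177), Gfap (0.00635) and Aldoc (0.0251). Single times did pass in edgeR for these same genes. Gfap was 208, 186.7 and 237 CPM at 0 h, and 277, 280 and 370 CPM at 12 h and 253, 290 and 301 CPM at 22 h, without overlap. It rose by 0.71 at 12 h (SE 0.17, adjusted p = 0.0231) and by 0.61 at 22 h (SE 0.17, adjusted p = 0.0368).

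Aldoc in BRN was 803, 889 and 986 CPM at 0 h, and every fasted library was above these, from 1079 CPM at 18 h to 1730 CPM at 12 h. It rose by 0.88 at 12 h (SE 0.18, adjusted p = 0.0159) and by 0.75 at 22 h (SE 0.18, adjusted p = 0.0262). S100b was 159.2, 172 and 133.6 CPM at 0 h, 244, 250 and 277 CPM at 12 h, 383 and 209 CPM at 18 h, and 253, 311 and 208 CPM at 22 h. All libraries of these times lay above the fed ones. S100b rose by 0.89 at 12 h (SE 0.25, adjusted p = 0.0432), by 1.15 at 18 h (SE 0.27, adjusted p = 0.0382) and by 0.95 at 22 h (SE 0.25, adjusted p = 0.0336). By adjusted p 3 of 9 members passed at 12 h beside 6.01% of genes, 1 at 18 h beside 2.41%, and 3 at 22 h beside 6.88%. The rise of S100b at 18 h was the only one past the log2 threshold, beside 1.91% of genes. At 12 h 0 of 9 were past it beside 3.42%, and at 22 h 0 of 9 beside 3.68%.

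Other values moved with the BRN results. The oligodendrocyte sum was 6777 to 8981 CPM at 0 h, 11439 to 12449 CPM at 12 h, 8079 and 20454 CPM at 18 h, and 9600 to 25017 CPM at 22 h. The sum of the 7 genes of the neuron list was 5517 to 6244 CPM at 0 h and 3935 to 5794 CPM at 22 h. S100b at 383 CPM was in 18 h replicate 2, with the oligodendrocyte sum of 20454 CPM, and without this library the difference at 18 h was 0.50. Slc1a2 in BRN was 1640, 1820 and 1860 CPM at 0 h and 1077, 933 and 1646 CPM at 22 h, and did not pass. The median difference at 18 h was −0.11 over all genes and 0.39 over the members. The part of tissue composition in these values was not tested.

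The 7 BRN results at single times were lost with lane as a term, with the series of library numbers as a term, and with the left-out libraries returned, and 5 of them were lost with the length trend removed. All 3 fed BRN libraries carry numbers of the series shared by only 2 fasted ones, 2 h replicate 3 and 12 h replicate 3. Without BRN 0 h replicate 1 or 2 all 7 were lost, and without 0 h replicate 3 those of S100b at 12, 18 and 22 h, Aldoc at 22 h and Gfap at 22 h. At 12 h all were lost without 12 h replicate 2, and at 22 h all were lost without 22 h replicate 1 or 2. S100b at 12 h was also lost without 2 h replicate 3, 8 h replicate 1 or 2, 12 h replicate 1 or 3, or 22 h replicate 1. S100b at 18 h was lost without 2 h replicate 3, 8 h replicate 1 or 2, 12 h replicate 1, 18 h replicate 2 or 22 h replicate 1, and Gfap and S100b at 22 h without 8 h replicate 1 or 2. The differences stayed above 0 in all settings run. At 12 h they were 0.62 to 0.84 for Gfap, 0.64 to 0.99 for Aldoc and 0.47 to 1.01 for S100b. S100b at 18 h was 0.50 without 18 h replicate 2 and 1.60 without 18 h replicate 3, each time with 1 library left at 18 h. BRN has 2 libraries each at 8 and 18 h, so leaving out any of these 4 leaves a group of 1 library, which is assumed to vary like those of the other groups. At 22 h Gfap was 0.52 to 0.95, Aldoc 0.55 to 0.97 and S100b 0.46 to 1.14.

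In CBL 1 of 9 members passed the joint test, Slc1a2, beside 2.99% of genes. It was 534, 454 and 498 CPM at 0 h and 631, 624 and 612 CPM at 22 h, with 587, 584 and 628 CPM at 8 h and 612, 591 and 675 CPM at 18 h. The 8, 18 and 22 h libraries lay above all fed ones, and those of 2 and 12 h overlapped with them. The joint test gave an adjusted p of 0.0321, and at 22 h Slc1a2 rose by 0.31 (SE 0.08, adjusted p = 0.0267).

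Glul in CBL was 897, 777 and 932 CPM at 0 h and 1079, 1201 and 1256 CPM at 22 h, without overlap. It rose at 22 h by 0.42 (SE 0.10, adjusted p = 0.0253). At that time 2 of 9 members passed by adjusted p, beside 3.96% of genes. Both results were lost without CBL 0 h replicate 2, 0 h replicate 3, 22 h replicate 2 or 22 h replicate 3, while over all settings run the differences were 0.36 to 0.50 for Glul and 0.26 to 0.39 for Slc1a2. The joint call of Slc1a2 was lost with the length trend removed (0.0718) and without 0 h replicate 2 (0.0577), 2 h replicate 1 (0.0600) or 2 (0.0601), 12 h replicate 2 (0.0779) or 3 (0.0653), or 22 h replicate 2 (0.0726) or 3 (0.0528). The fed CBL libraries were the deepest, so depth and the fed state cannot be told apart here. Beside these, the sum of the endothelial cell genes was 65.3 to 71.2 CPM at 0 h and 87.2 to 135.9 CPM at 22 h, and the oligodendrocyte sum 6141 to 8086 CPM and 8637 to 11097 CPM. Of the further astrocyte genes Gjb6, the other astrocyte connexin gene (0.48 at 22 h, joint adjusted p = 0.0309), and Dio2, the gene of the enzyme that activates thyroid hormone (0.35, 0.0429), passed, and of the glycolytic genes Pfkp (−0.32, 0.0429).

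In BST 0 of 9 members passed the joint test in edgeR, beside 0.107% of genes. At an unadjusted p under 0.05 it passed for 3 members, and in DESeq2 for 1, Glul (adjusted p = 0.0129). No time differed from 0 h for any member by adjusted p in edgeR, while 4 members had an unadjusted p under 0.05 at some time and 1 passed in DESeq2. Slc1a2 in BST ranged over 1263 to 1458 CPM across all times, the narrowest of its regions. The member medians lay between −0.04 and 0.04 at the 5 times.

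**Figure D3:**
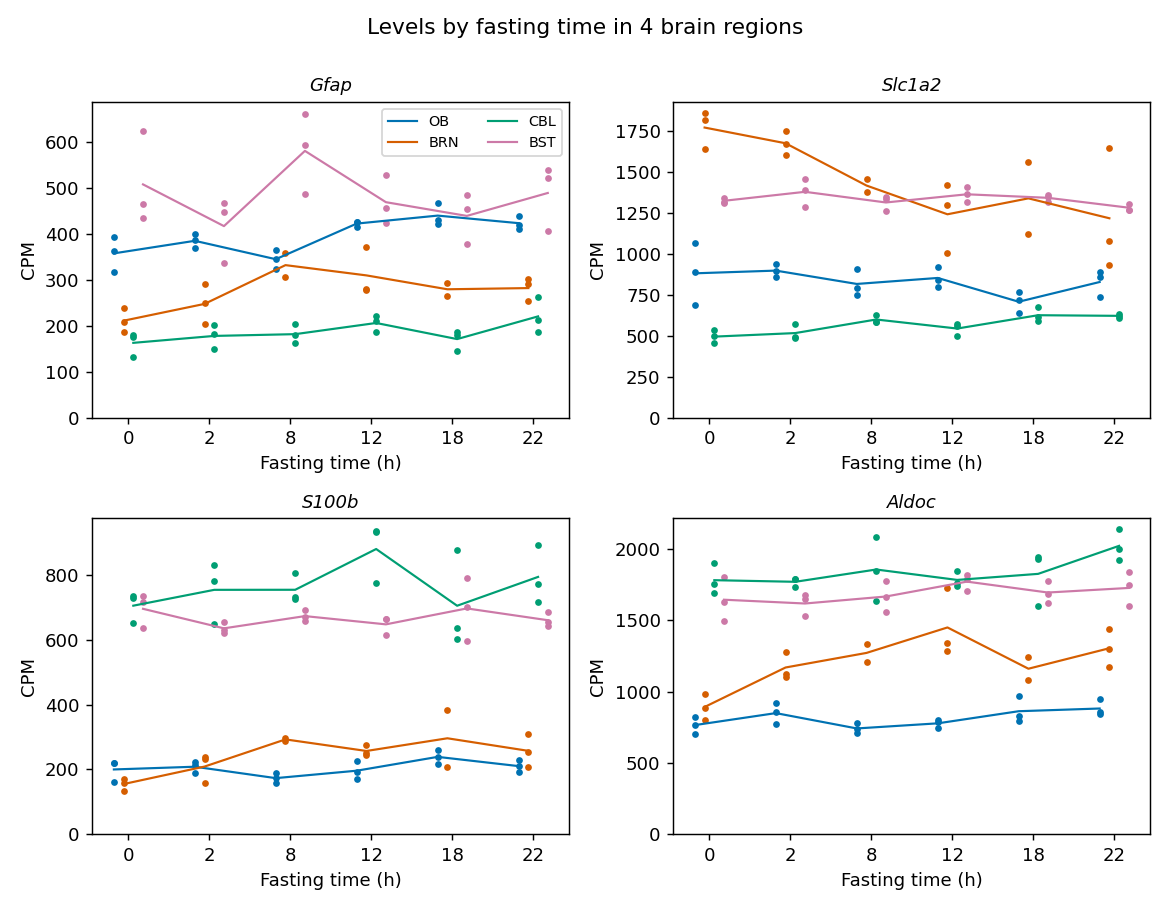
Levels of Gfap, Slc1a2, S100b and Aldoc by fasting time in the 4 brain regions, in CPM, with 1 point for each library and lines through the group means. In BRN every fasted library has more Aldoc than the fed ones (803 to 986 CPM).

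Whether the time course itself differed between the 4 regions was tested by an interaction over all brain libraries. It passed for 4 of 9 members, beside 21.2% of genes: Slc1a2 (adjusted p = 0.00313), S100b (0.00694), Aldoc (0.00750) and Gfap (0.00930). Slc1a2 was 1640 to 1860 CPM at 0 h and 933 to 1646 CPM at 22 h in BRN, and 454 to 534 CPM and 612 to 631 CPM in CBL. The difference at 22 h passed in CBL and did not pass in BRN. In DESeq2 4 members passed as well. Lane goes with fasting time in OB, library series with the fed state in BRN, and depth with the fed state in CBL. The interaction had no term for lane or library series, and the part of these and of depth was not tested. The result depended on the libraries: with the left-out ones returned 0 of 9 passed, without replicate 1 of each group 0 of 9, and without replicate 2 Slc1a2 (0.134), Aldoc (0.0537) and Gfap (0.105) did not. Without replicate 3, 6 members passed, Aqp4 (0.00258) and Aldh1l1 (0.0150) among them. Without replicate 1 BRN has 1 library at 8 h, without replicate 2 1 each at 8 and 18 h, and without replicate 3 1 at 18 h. With the length trend removed S100b was at 0.0558 and Gja1 at 0.00799. Of the further astrocyte genes 8 of 35 passed, of the glycolytic genes 9 of 17. The endothelial cell genes passed in 4 of 4, the regionally enriched astrocyte genes in 5 of 12, the glutamate and glutamine genes in 4 of 13, and the reactive astrocyte, oligodendrocyte and neuron genes in 0 of 12, 0 of 7 and 0 of 7. The part of these cells was not tested.

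Outside the brain most of these genes were low, with exceptions in each organ. Compared with the mean of the 4 brain regions, with 22113 genes tested, 6 of 9 members were called in STM beside 55.2% of genes, 8 in LIV beside 63.9%, 7 in iBAT beside 55.8%, 7 in pgWAT beside 56.2% and 8 in psWAT beside 57.9%. By adjusted p alone the counts were 8 beside 82.9%, 9 beside 85.9%, 8 beside 81.2%, 8 beside 84.5% and 8 beside 84.7% in the same order, so most genes differ between such organs. Those that did not pass were Gja1 in STM and iBAT, Glul in pgWAT and Aldh1l1 in psWAT. Gfap, Aqp4, Slc1a2, S100b and Aldoc were called in all 5 organs, Slc1a3 in all but pgWAT, Gja1 in LIV, pgWAT and psWAT, Glul in iBAT and psWAT, and Aldh1l1 in LIV and pgWAT. Of these 36 calls 33 were lower than in brain, and the others were Aldh1l1 in LIV and pgWAT and Glul in iBAT. The scaling factors of the organs differ, with medians of 0.622 in LIV, 1.36 in psWAT and 1.11 to 1.25 in the brain regions, so that levels in CPM and these log2 fold changes can rank organs differently.

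Gfap, the filament gene, was near 0 in these organs: 0, 0.113 and 0.763 CPM in LIV and 0, 0 and 0.371 CPM in iBAT, as lowest, median and highest. It had no count in 6 of 18 LIV, 12 of 17 iBAT, 4 of 18 pgWAT and 7 of 17 psWAT libraries, and 0.230 to 5.37 CPM in STM. Slc1a2 was likewise low in iBAT (median 0.113 CPM) and pgWAT (0.807 CPM). In LIV it reached 106, 153.3 and 193.03 CPM, all libraries below those of the brain and above those of the other organs except psWAT 12 h replicate 3. The difference of LIV from the brain was −1.79 (SE 0.32, adjusted p = 1.23e-07).

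Aldh1l1 was far higher in LIV, where the folate enzyme is abundant. It was 842, 1101 and 1377 CPM there, against 55.9 to 144.8 CPM in all brain libraries. No library overlapped, and the log2 fold change was 4.78 (SE 0.13, adjusted p = 9.94e-75). In pgWAT it was 32.2, 225 and 306 CPM (1.69, SE 0.14, adjusted p = 4.74e-24). Per kilobase, Aldh1l1 was the highest of the 9 in LIV (244 CPM per kilobase) and Glul followed (209).

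Glul was present in every organ. In iBAT it was 1701, 2496 and 3165 CPM, and 9 of the 17 libraries lay above the highest brain library, at 2280 CPM. The difference from brain was 1.43 (SE 0.11, adjusted p = 8.19e-25). It was 605, 1383 and 1862 CPM in pgWAT, where the difference was 0.0072 (SE 0.12, adjusted p = 0.966) and changed sign with the settings, and 156.8, 688 and 1692 CPM in psWAT (−1.07, SE 0.13, adjusted p = 8.31e-13). In LIV, where it marks hepatocytes around the central veins, it was 410, 696 and 848 CPM (−0.27, SE 0.12, adjusted p = 0.0339), and in STM 467, 626 and 818 CPM (−0.83, SE 0.13, adjusted p = 4.88e-09).

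Gja1 and S100b also have cells outside the brain. Gja1 had medians of 137.8 CPM in iBAT (−0.09, adjusted p = 0.604) and 158 CPM in STM (−0.24, adjusted p = 0.167), neither of which differed from the brain beyond the spread. S100b, which brown adipocytes make, was 67.6 to 139.4 CPM in iBAT with a median of 110 (−1.28, SE 0.28, adjusted p = 1.50e-05), while in LIV it had no count in 12 of 18 libraries. Slc1a3 was 33.8, 267 and 460 CPM in pgWAT, above the BST median of 212 CPM, and 59.4, 116.8 and 178 CPM in iBAT. Aqp4, known from acid-secreting cells of the stomach, had a lowest level of 1.65 CPM and a median of 24.1 CPM in STM.

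**Figure D4:**
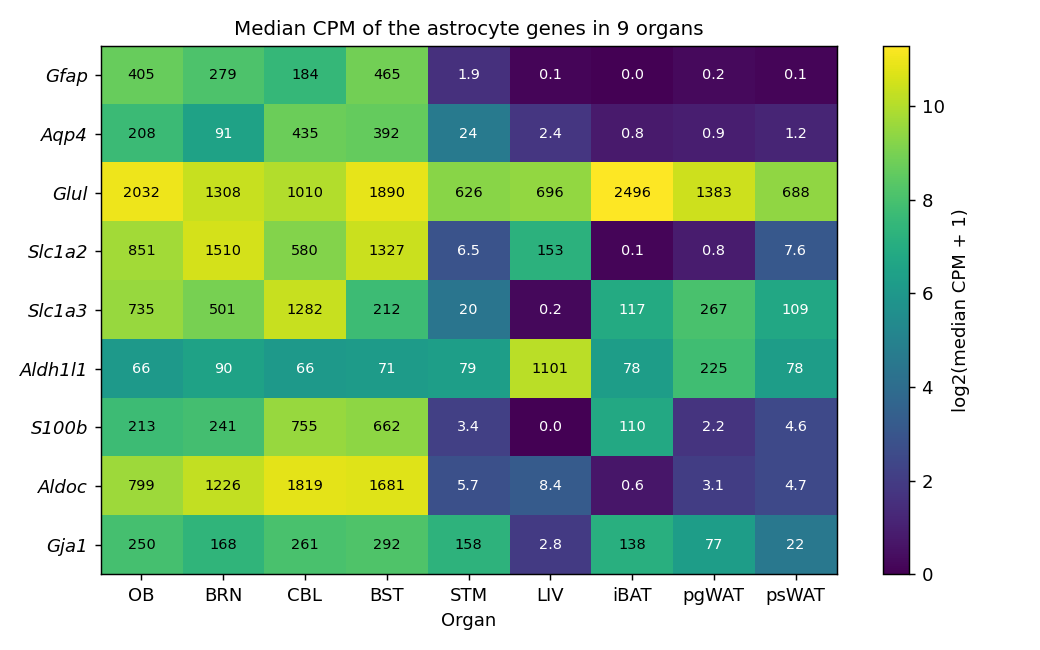
Median level of each member in the 9 organs, in CPM, written in each cell and coloured as log2 of CPM plus 1. Aldh1l1 peaks in LIV (median 1101 CPM) and Glul in iBAT (median 2496 CPM), and Gfap is near 0 outside the brain.

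The psWAT library of 12 h replicate 3 carried brain-like levels of the members. It had 72.3 CPM of Gfap, 193.4 CPM of Aqp4, 358 CPM of Slc1a2 and 978 CPM of Aldoc, while the highest values of the other 16 psWAT libraries were 3.90, 11.0, 67.8 and 42.7 CPM. As a share of the CBL library of the same mouse, the 9 members were at 34.6% (Gfap) to 134.97% (Aldh1l1). The cerebellar granule and Purkinje cell sum was 5025 CPM in it, 8236 CPM in CBL of that mouse and at most 56.4 CPM in the other psWAT libraries. Its adipocyte sum was 3060 CPM. Without this library and the BRN libraries of mice 6 and 14, 8 of 9 members were still called in psWAT, the same ones.

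Fasting in the other organs moved few members. In LIV 1 of the 6 members that passed the filter, Glul, passed the joint test (adjusted p = 0.00703), beside 16% of genes. It was 759, 848 and 715 CPM at 0 h, 639, 645 and 477 CPM at 12 h, 636, 410 and 426 CPM at 18 h, and 703, 779 and 828 CPM at 22 h. The 12 and 18 h libraries lay below all fed ones, and those of 22 h overlapped with them. Glul fell by 0.44 at 12 h (SE 0.14, adjusted p = 0.0431) and by 0.79 at 18 h (SE 0.14, adjusted p = 0.00189). The sum of 7 pericentral hepatocyte genes, led by Cyp2e1, was 5817 to 8839 CPM at 0 h, 4088 to 5283 CPM at 12 h, 5001 to 5779 CPM at 18 h and 6928 to 8185 CPM at 22 h, and its part in the change was not tested. The 18 h result was lost with lane as a term, at −0.94. The LIV libraries of 0 h were all in lane 1 and those of 12, 18 and 22 h all in lane 2.

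The 12 h result in LIV was less stable. It was lost with lane as a term (−0.59), with the replicate number as a block (−0.44), with no filter (−0.44), and without LIV 0 h replicate 1 or 2, 2 h replicate 3, 8 h replicate 1, 22 h replicate 2 or any of the 3 libraries of 12 h. By adjusted p 1 of 6 members passed at 12 h beside 11.9% of genes, and 1 of 6 at 18 h beside 9.97%.

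In iBAT 1 of the 7 members tested passed the joint test, Gja1, beside 29% of genes. It was 197, 171.06 and 240 CPM at 0 h and 45.3 and 79.3 CPM in the 2 libraries of 22 h, with 108 to 155.2 CPM at the times between. The 22 h values lay below all others. Gja1 fell by 1.82 at 22 h (SE 0.24, adjusted p = 0.000186), beside 29.7% of genes called, and the joint test gave 0.00083. The size was −0.90 with the length trend removed. Without 22 h replicate 2 it was −1.49 and without 22 h replicate 3 it was −2.26, but each of these fits has 1 library at 22 h, which is assumed to vary like those of the other groups, and does not show how stable the call is. These 2 libraries stand apart from the other iBAT libraries, with correlations to their organ of 0.914 and 0.963, and replicate 2 has 3156101 counts. The iBAT libraries of 22 h are also the only ones of iBAT in lanes 1 and 3, so lane and this time cannot be told apart. The adipocyte sum, of 4 genes led by Fabp4, was 7796 to 11577 CPM at 0 h and 19011 to 21429 CPM at 22 h. The endothelial cell sum was 210 to 425 CPM and 160.2 to 169.2 CPM, with 3 of its 3 genes tested passing the joint test and a median difference of −1.11. The smooth muscle sum was 127.6 to 205 CPM and 249.9 to 295 CPM, with a median difference over its genes of −1.63. The part of tissue composition was not tested.

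In STM 0 of 9 members passed the joint test in edgeR, beside 6.55% of genes, with 3 at an unadjusted p under 0.05 and 0 in DESeq2. At 18 h 2 of 9 passed by adjusted p, beside 14.3% of genes. Slc1a3 was 21.3, 22.01 and 24.3 CPM at 0 h and 11.3, 12.4 and 9.90 CPM at 18 h, and fell by 1.21 (SE 0.34, adjusted p = 0.0279), past the log2 threshold beside 8.72% of genes. Aldh1l1 was 94.2, 77.4 and 79.4 CPM at 0 h and 52.3, 56.8 and 47.6 CPM at 18 h, and fell by 0.88 (SE 0.25, adjusted p = 0.0261). Neither overlapped with the fed libraries, and both results were lost with lane as a term and without STM 0 h replicate 1, 0 h replicate 3, 18 h replicate 1 or 18 h replicate 3. With lane as a term they were −0.94 and −0.55, and over all settings run −0.94 to −1.36 for Slc1a3 and −0.55 to −1.01 for Aldh1l1. The STM libraries of 0 h were all in lane 5 and those of 18 h all in lane 6, and only the 8 h libraries lay in both, so lane and time can hardly be told apart. The 4 smooth muscle genes summed to 3274 to 6481 CPM at 0 h and 5170 to 11823 CPM at 18 h, led by Myh11. The parietal and chief cell sum was 128814 to 168429 CPM and 74259 to 137613 CPM, with a median difference of −1.29. The adipocyte sum was 55.5 to 165.2 CPM and 77.2 to 92.5 CPM, with a median difference of −3.55 and 1 of 4 genes passing the joint test. The part of these tissues was not tested.

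In pgWAT and psWAT 0 of 8 members each passed the joint test in edgeR, beside 0% of genes in both. At an unadjusted p under 0.05 it passed for 2 and 4 members, and in DESeq2 for 2 (S100b and Slc1a2 of pgWAT) and 0. In psWAT DESeq2 gave no adjusted p for Aldoc, Aqp4, S100b and Slc1a2, so its 0 there is of the other 4. No member differed from 0 h at any time in either depot by edgeR, with 2 and 5 members at an unadjusted p under 0.05 at some time and 0 in DESeq2. The psWAT fit kept 12 h replicate 3, with its brain-like levels, and 8 h replicate 1, which was more like pgWAT. The median log2 fold change of the 8 members in psWAT was 2.01 at 12 h. The part of these 2 libraries in the spread was not tested.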

How the data were processed

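The authors deposited raw counts of reads per gene, aligned with TopHat2 2.1.1 and counted with HTSeq-count 0.9.1. They were used as counts, and the 5 libraries that the study left out were left out. Genes were kept when at least 3 libraries reached the CPM that equals 10 counts in a library of median size. Tests used edgeR 4.0.16 (quasi-likelihood, TMM factors) in R 4.3.3, with DESeq2 1.42.0 as the alternative, and adjusted p is Benjamini-Hochberg over all kept genes. A call needs an adjusted p under 0.05 and an absolute log2 fold change over 1. Neighbours in an order, single times, joint tests and the interaction use adjusted p alone. Levels are plain CPM, and lengths for CPM per kilobase are unions of exons in Gencode M21, while the authors counted on Gencode M16.

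Every member was to be named in every comparison, and in the fasting tests the text names those that passed. Of each list, the 2 called genes with the highest and the 2 with the lowest log2 fold change per region are named, and any gene whose joint fasting test passed in a brain region, with some of these left out. Lists of other cell types are given as summed CPM. For each member the 3 most similar genes are named. Members and lists were chosen with earlier results of these data known. Alternatives tried were RLE factors, no filter, DESeq2, all libraries, blocks by animal or replicate number, lane and library series terms, transcript length offsets, and leaving out libraries or replicates. No tests of whole lists were made.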

Additional observations from a re-analysis of the deposited data

Results flagged for a closer look

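For 4 members the fasting time courses of the 4 brain regions differed by the interaction test, and this difference between regions is why they are listed here. The adjusted p was 0.00313 for Slc1a2, 0.00694 for S100b, 0.0075 for Aldoc and 0.0093 for Gfap. Of all genes 21.2% passed this test. It had no term for lane, which goes with fasting time in OB, or for library series, which goes with the fed state in BRN. Their part, and that of the deeper fed libraries in CBL, was not tested. With the left-out libraries returned 0 of 9 members passed, and without replicate 1 of each group, which leaves BRN 8 h with 1 library, 0 of 9, both in edgeR, while DESeq2 gave 4 with the libraries retained.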

How the results depend on the processing

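Bulk tissue gives no count of cells, 3 mice a group leave small changes untested, and the clock time at which fasting began cannot be told apart from its length. Lane, library series, depth and single libraries moved with the fasting results, while most calls between regions and organs held and their sizes moved. Of the values in alternative settings, 351 of 360 for a region against the other 3 and 376 of 380 for organs kept the call and direction. For pairs of regions, 532 of 540 kept the direction and the result by adjusted p alone. Some pairs crossed the log2 threshold of 1 in some setting. Slc1a3 between BRN and CBL came down to −0.85 and Aqp4 between OB and BST to −0.97. Slc1a2 between OB and BRN reached −1.24 and Glul between OB and CBL 1.01. In psWAT Gfap ran from −6.49 without replicate 1 to −11.23 without replicate 3, Aldoc from −4.86 to −8.37 and Aqp4 from −4.35 to −7.16 over the same settings. Slc1a3 between OB and BRN was 0.034 with transcript length offsets, where it no longer passed, to 0.42 without replicate 2, and Slc1a2 between BRN and BST 0.074 with all libraries, where it did not pass either, to 0.50 with length offsets.

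Between regions, members called in OB were 1 in place of 2 with all libraries and 1 (without replicate 2) to 2 (without replicate 1) over replicates left out, and in BRN 2 in place of 1 with transcript length offsets. Gja1 changed sign to −0.043 in OB and −0.023 in CBL with length offsets, and between OB and CBL ran from −0.035 without replicate 2 to 0.011 without replicate 1. Slc1a3 in BRN was 0.25 with length offsets and −0.12 without replicate 2 to 0.11 without replicate 3, and Aldoc in BRN was −0.11 without replicate 2 to 0.041 without replicate 3. Between OB and BST, Aldh1l1 passed with DESeq2 and with RLE factors (−0.17). Glul in pgWAT, at 0.0072, was −0.012 with DESeq2, −0.012 with RLE factors, −0.0035 with the animal block, and −0.017 without replicate 1 to 0.024 without replicate 2. The animal block changed no other result. DESeq2 gave no adjusted p for Gfap, Aqp4, Slc1a2, S100b and Aldoc in any organ against the brain, so these have no alternative there from that tool. Of the other 4 members it called 1 in STM, 3 in LIV, 2 in iBAT, 2 in pgWAT and 3 in psWAT, the same numbers of these 4 as in edgeR.

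The interaction held 3918 genes and 4 members (region by fasting interaction, genes called and members). It had 7080 genes with DESeq2, 1198 genes and 0 members with all libraries, 7 members with no filter, and 2 genes and 0 members without replicate 1 up to 6912 genes and 6 members without replicate 3. Without replicate 1 BRN 8 h is 1 library, and without replicate 3 BRN 18 h is.

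For the joint test in OB (OB joint, genes called 2570, members 2) the counts were 4388 and 5 with no filter, 1095 and 1 with length offsets, and 1176 and 0 with the lane covariate. With single libraries left out they ran from 1035 genes (18 h replicate 1) to 3676 (0 h replicate 3) and from 1 member (0 h replicate 2) to 5 (0 h replicate 3), where Aldoc, S100b and Slc1a2 passed. Genes called at any time in OB (91) were 327 with no filter, 52 with length offsets, 1 with the lane covariate, and 6 (without 18 h replicate 1) to 178 (without 18 h replicate 2).

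For the joint test in BRN (BRN joint, genes called 1, members 0) the counts were 2015 and 3 with no filter, 1577 and 3 with DESeq2, and 7 genes with all libraries. There were 0 genes with the replicate number block, 0 with length offsets, 0 with the lane covariate, 0 with the library series covariate and 0 without the BRN libraries of animals 6 and 14. Left-out libraries gave 0 genes and 0 members (0 h replicate 1) to 2890 genes and 4 members (18 h replicate 3), the 4 being Aldoc, Gfap, S100b and Aldh1l1. In that fit BRN 18 h is the 1 library of replicate 2, which stands apart, and it is assumed to vary like the libraries of the other groups. At any time (BRN any time against 0 h, genes called) BRN had 994 genes and 1 member. This was 2081 genes with no filter, 2128 with DESeq2, 574 with length offsets, 64 genes and 0 members with all libraries, 0 and 0 with the lane covariate, 0 and 0 with the library series covariate, and 0 members without animals 6 and 14. Left-out libraries gave 0 genes and 0 members (0 h replicate 1) to 5057 genes and 2 members (18 h replicate 3), again with 1 library at 18 h.

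For the joint test in CBL (477 genes, 1 member) the counts were 2397 and 4 with no filter, 1768 and 3 with DESeq2, and 0 members with length offsets. Left-out libraries gave 22 genes (12 h replicate 2) to 1681 (18 h replicate 3), and 0 members (0 h replicate 2) to 3 (18 h replicate 3), where Glul and S100b also passed. At any time CBL had 108 genes called, 242 with no filter and 2 (without 22 h replicate 2) to 163 (without 18 h replicate 3). For the joint test in BST (18 genes, 0 members) the counts were 749 and 1 with no filter, 211 and 1 with DESeq2, 33 genes with the replicate number block, and 1 (without 22 h replicate 3) to 207 (without 0 h replicate 3). At any time BST had 0 genes, 36 with no filter, and 0 to 21 with a library left out, the most without 0 h replicate 3.

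In STM members called at any time (1) were 2 with DESeq2, 2 with length offsets, 0 with the lane covariate, and 0 (without 0 h replicate 1) to 2 (without 0 h replicate 2). The joint test there had 0 to 1 members, Aqp4 passing without 22 h replicate 2. In LIV the joint test (1 member) had 3 with no filter, 2 with length offsets, and 1 to 2 with a library left out, Slc1a2 passing without 0 h replicate 3 or 8 h replicate 3 and Aldoc without 18 h replicate 3, and members called at any time were 0 to 2, the most without 18 h replicate 1. In iBAT the joint test (1 member) had 2 with no filter, 2 with DESeq2, 2 with length offsets, and 1 to 2 with a library left out, Slc1a3 passing without 12 h replicate 3. The lane covariate could not be fitted in iBAT and was not run there. The joint test had 2 members in pgWAT with DESeq2 in place of 0, and 1 in psWAT with all libraries in place of 0. The replicate number block changed no call of a member but that of Glul in LIV at 12 h.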
